A study of Homo sapiens with 9 samples.

Results

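Open chromatin in gene deserts of MDA-MB-231 cells was examined. A desert region was taken as an autosomal open region that lay outside every GENCODE protein-coding gene body and more than 250 kb from the transcription start site (TSS) of every protein-coding transcript. The peaks of all 9 libraries on chromosomes 1 to 22 were merged where they shared at least 1 bp, which gave 115414 regions, and 6034 of them (5.23%) were desert regions. They were compared with 40854 nearby intergenic regions, which also lay outside gene bodies but between 1 and 250 kb from a TSS, with 50098 regions in gene bodies and with 18428 promoter regions within 1 kb of a TSS. Among the open regions the rule chose by position alone. To be an open region, a site needed a peak in at least 1 library, so membership is not independent of the signal.

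The data were ATAC-seq peak lists. ATAC-seq cuts accessible DNA with the Tn5 transposase, and a peak is a stretch with more cuts than its surroundings. MDA-MB-231 is an established line of triple-negative, mesenchymal-like breast cancer cells. Cells carried a control short hairpin RNA (shCtrl, 2 libraries), a hairpin against EZH2 (shEZH2, 2 libraries), against E2F1 (shE2F1, 2 libraries) or against SUZ12 (shSUZ12, 1 library), each after 24 h of lentiviral transduction and 72 h of selection in 2 µg/ml puromycin. Others received the EZH2 inhibitor GSK126 for 72 h (1 library) or its solvent DMSO (1 library), and the labels list the latter as WT. EZH2 and SUZ12 are subunits of the Polycomb repressive complex PRC2, which methylates lysine 27 of histone H3, and E2F1 is a transcription factor of the cell cycle. The labels do not say whether the replicates came from separate cultures, so the spread between them may be technical. All comparisons with shEZH2, shE2F1 and shSUZ12 share the shCtrl libraries.

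Gene deserts are long stretches without protein-coding genes. Some hold little but repeats and centromeric sequence, and others hold enhancers that act over long distances on a developmental or growth regulator at their edge, as is known around SOX9 and MYC. Open sites far from promoters are mostly enhancers, insulators bound by CTCF, or promoters of long non-coding RNAs (lncRNAs).

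To show what such sites look like, the DNA around the summits of the 5 strongest desert regions found in all 9 libraries is printed, since these desert sites were open in every condition. Strength was the percentile of a peak's fold enrichment within its own list, and these 5 had the highest lowest percentile over the lists. Each sequence spans 100 bases on either side of the summit (GRCh38, plus strand), and capitals mark letters that match the searched AP-1 (TGANTCA), TEAD (GGAATGT), RUNX (TGTGGTT) or FOX (TGTTTAC) motif on either strand.
Between KCNJ2 and SOX9, chr17:71071893-71072093: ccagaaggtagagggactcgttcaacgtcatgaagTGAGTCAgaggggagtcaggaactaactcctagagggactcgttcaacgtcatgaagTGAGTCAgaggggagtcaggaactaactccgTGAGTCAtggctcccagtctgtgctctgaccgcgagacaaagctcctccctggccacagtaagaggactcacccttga
Between FAT4 and INTU, chr4:126850370-126850570: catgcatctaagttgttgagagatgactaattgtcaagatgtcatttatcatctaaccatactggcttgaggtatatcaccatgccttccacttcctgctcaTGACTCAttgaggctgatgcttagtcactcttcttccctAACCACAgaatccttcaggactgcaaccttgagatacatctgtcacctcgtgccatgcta
Between CBLB and CCDC54, chr3:106765343-106765543: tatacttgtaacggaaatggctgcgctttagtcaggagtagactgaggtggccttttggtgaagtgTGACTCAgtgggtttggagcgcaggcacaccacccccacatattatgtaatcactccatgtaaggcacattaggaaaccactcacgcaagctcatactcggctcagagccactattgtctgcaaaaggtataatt
Between DNAJB9 and IMMP2L, chr7:110387011-110387211: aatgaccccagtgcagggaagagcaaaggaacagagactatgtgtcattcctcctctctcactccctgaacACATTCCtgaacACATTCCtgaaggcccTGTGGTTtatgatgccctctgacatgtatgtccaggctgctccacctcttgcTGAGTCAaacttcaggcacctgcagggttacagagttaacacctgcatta
Between NT5C1B and OSR1, chr2:19073682-19073882: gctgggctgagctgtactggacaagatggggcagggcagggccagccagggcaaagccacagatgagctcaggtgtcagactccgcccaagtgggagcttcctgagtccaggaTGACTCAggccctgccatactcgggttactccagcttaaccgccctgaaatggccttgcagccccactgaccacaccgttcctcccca

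All 5 windows held AP-1 letters, the site of FOS and JUN dimers. The window between KCNJ2 and SOX9 held 3 AP-1 matches, and that between DNAJB9 and IMMP2L held 4 matches, of which 2 were for TEAD, the DNA-binding partner of YAP and TAZ. In the former window 2 of the AP-1 matches lay in adjacent identical copies of the same stretch. Both TEAD matches of the latter window also lay in adjacent identical copies. AP-1 letters stood within 100 bp of the summit in 42.1% of desert regions, in 34.9% of nearby intergenic and 34.8% of gene-body regions, in 10.3% of promoter regions and in 30.7% of all 109380 regions outside deserts, all searched in windows of the same length. A match describes letters and not a bound factor.

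The region between KCNJ2 and SOX9 (chr17:71071775-71072461) lay 902 kb from the nearest TSS, that of KCNJ2. SOX9 encodes a developmental transcription factor. Over the 9 libraries its percentile had a low of 99.7, a median of 100 and a high of 100, and its fold enrichment ran from 17.5 to 25.9. The region was among the strongest peaks of every list. Between FAT4 and INTU (chr4:126850253-126850760, 773 kb from a TSS) the percentile ran from 98.9 to 100, and between CBLB and CCDC54 (chr3:106765259-106765784, 612 kb) from 98.5 to 99.8, in an intron of the lncRNA gene LINC00882. Between DNAJB9 and IMMP2L (chr7:110386920-110387635) the percentile ran from 98.0 to 99.9. This site was 703 kb from the TSS of LRRN3 and within an intron of the lncRNA gene ENSG00000226965. Between NT5C1B and OSR1 (chr2:19073460-19074164), 284 kb from OSR1, a regulator of kidney and limb development, it ran from 97.9 to 99.8, within an intron of LINC01376. In all, 67 desert regions had a percentile above 90 in every library.

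The lists held 58626 to 85812 peaks, and the most frequent background at a summit, which follows depth, was lowest at 1.41 tags in shEZH2 replicate 2, the shortest list, and highest at 2.18 in shE2F1 replicate 2, the longest. Promoter peaks were present in all 9 libraries at the 6 mesenchymal and basal genes examined (VIM, CD44, AXL, CAV1, EGFR and MMP14), but also at 5 of 8 luminal and epithelial genes, and no gene of either set lacked one everywhere, so promoter peaks did not set the labelled cell type apart. The promoters of EZH2, E2F1 and SUZ12 had peaks in all 9 libraries. Peaks there do not measure the depletion, which was not analysed here.

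Desert regions were sparse and moderately recurrent. Deserts covered 572 Mb of sequenced bases (20.8% of the autosomes) and held 10.5 regions per Mb, against 44.3 per Mb in nearby intergenic sequence, 42.0 in gene bodies and 267 at promoters. The number of desert regions with a peak was 3027 and 3250 in the shCtrl libraries, 2927 and 2150 in shEZH2, 2660 and 3857 in shE2F1, 2855 in shSUZ12, 2984 in DMSO and 2622 in GSK126. The second shE2F1 library, the longest list, stood above all others, and 553 of its desert regions (14.3%) were found in no other library. In the remaining libraries 2.59% to 7.88% were found in that library alone.

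**Figure D1:**
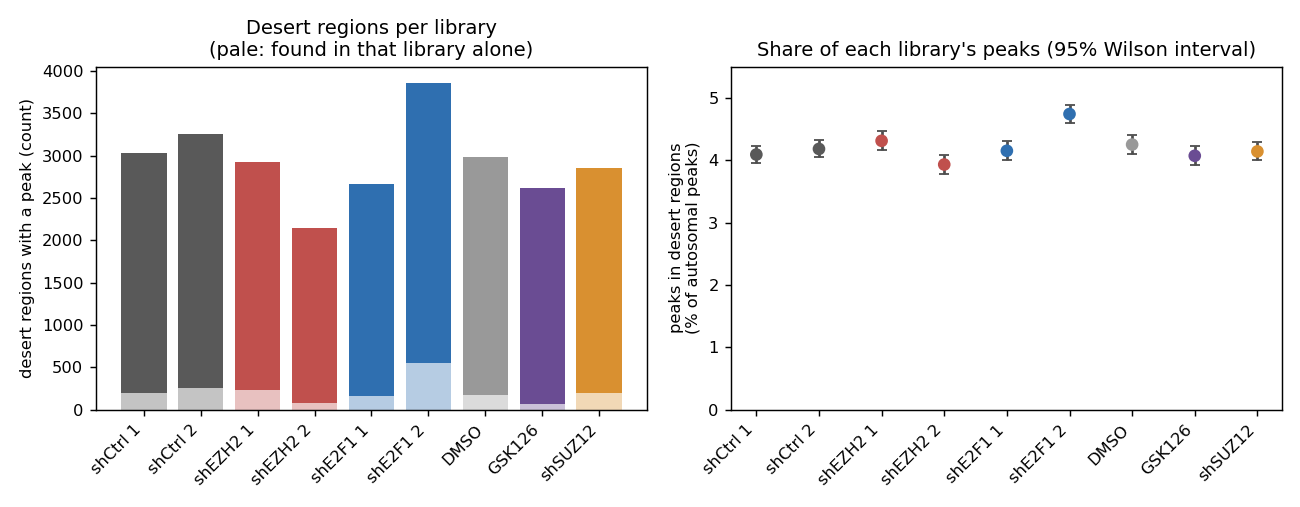
Left, number of desert regions with a peak in each library (bars), with those found in that library alone in the pale part. Right, desert peaks as percent of all autosomal peaks of the library, with 95% Wilson intervals. The count is lowest in shEZH2 replicate 2 (2150) and highest in shE2F1 replicate 2 (3857), while the share lies between 3.93% and 4.74%.

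As a share of a library's autosomal peaks, desert peaks made up 4.09% and 4.18% with shCtrl, 4.31% and 3.93% with shEZH2 and 4.15% and 4.74% with shE2F1. The shEZH2 libraries lay on both sides of the shCtrl libraries, and only the second shE2F1 library lay above them clearly. Neither difference exceeded the spread between replicates: shEZH2 minus shCtrl was -0.0158 percentage points (4.12% ± 0.272 against 4.14% ± 0.0678, SD, n = 2 each, exact permutation test, two-sided p = 1.00), and shE2F1 minus shCtrl was 0.310 points (4.45% ± 0.415, SD, n = 2, exact permutation p = 0.667). With 2 libraries against 2 the smallest p is 0.333.

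The shares looked different once every list was shortened to its 57037 peaks with the lowest p, the length of the shortest list. They were then 3.64% and 3.70% with shCtrl and 3.67% with DMSO, and 4.06% and 3.93% with shEZH2, 4.06% and 4.02% with shE2F1, 3.95% with shSUZ12 and 3.93% with GSK126. All 6 libraries with a depleted or inhibited factor lay above all 3 control libraries. For shEZH2 the difference was 0.325 points and for shE2F1 0.376 points, each with an exact permutation p of 0.333, the smallest possible. In the same lists gene-body peaks made up 38.0% to 38.1% with shCtrl and DMSO and 36.5% to 37.7% in the other libraries, whereas the nearby intergenic shares overlapped, with 32.9% to 33.5% in the 3 controls and 32.6% to 34.4% in the others. The part of signal quality in this order was not tested.

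Desert peaks were of ordinary strength. The median percentile of desert regions was 52.3 and 49.9 with shCtrl, 51.5 and 53.0 with shEZH2, 54.1 and 50.4 with shE2F1, 51.3 with shSUZ12, 47.4 with DMSO and 50.7 with GSK126. Only DMSO lay clearly below the middle of its list. Desert regions exceeded nearby intergenic regions by 1.02 ± 1.47 percentile points (SD, n = 9 libraries), with a higher median in 6 of 9, and this did not pass (exact sign-flip permutation test over libraries, two-sided p = 0.0781, and 0.0781 after Benjamini-Hochberg adjustment over 3 comparisons, where the smallest p is 0.00391). Without DMSO, which had the lowest difference of all libraries (-1.92 points), it was 1.39 points (exact permutation p = 0.0312). Without any other single library it was 0.784 to 1.15 points and did not pass (exact permutation p from 0.0781 to 0.156). Desert regions exceeded gene-body regions by 3.68 ± 1.79 points (higher in 8 of 9, exact permutation p = 0.00781, adjusted 0.0117). They fell below promoter regions by 15.2 points (lower in 9 of 9, SD 3.52, exact permutation p = 0.00391, adjusted 0.0117). The 9 libraries share a cell line and most regions.

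The comparison with nearby regions turned on the measure. Ranked by the p of the peak instead of its fold enrichment, desert regions were 6.43 percentile points below nearby regions (exact permutation p = 0.00391). Desert peaks were narrower, with a median width of 354 bp (interquartile range 252 to 571) against 404 bp nearby, and they held a median of 20.0 to 26 tags at the summit, depending on the library. Among desert regions 8.16% to 10.9% per library had a percentile above 90.

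Replicate agreement was lower in deserts than in the other classes. Of desert regions with a peak in either shCtrl library, 63.3% had one in both (2432 of 3845, 95% Wilson interval 61.7 to 64.8), against 71.1% nearby, 67.8% in gene bodies and 87.9% at promoters. The share was 56.5% with shEZH2 (1833 of 3244, 54.8 to 58.2), where it was 64.5% nearby, and 54.5% with shE2F1 (2299 of 4218, 53.0 to 56.0), where it was 63.1% nearby. Deserts had the lowest share of the 4 classes in all 3 pairs, and with 3 pairs no test was made of the order. Desert regions found in a single replicate were weak, with a median percentile of 25.9 in shCtrl against 59.2 for those found in both. The intervals cover counting error only.

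Over all libraries 1902 desert regions (31.5%) had a peak in a single list and 1298 (21.5%) in all 9, against 25% and 30.2% of nearby regions. The single-list regions had a median percentile of 20.8. The regions in all 9 lists had a median of 72.3 for their middle percentile.

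**Figure D2:**
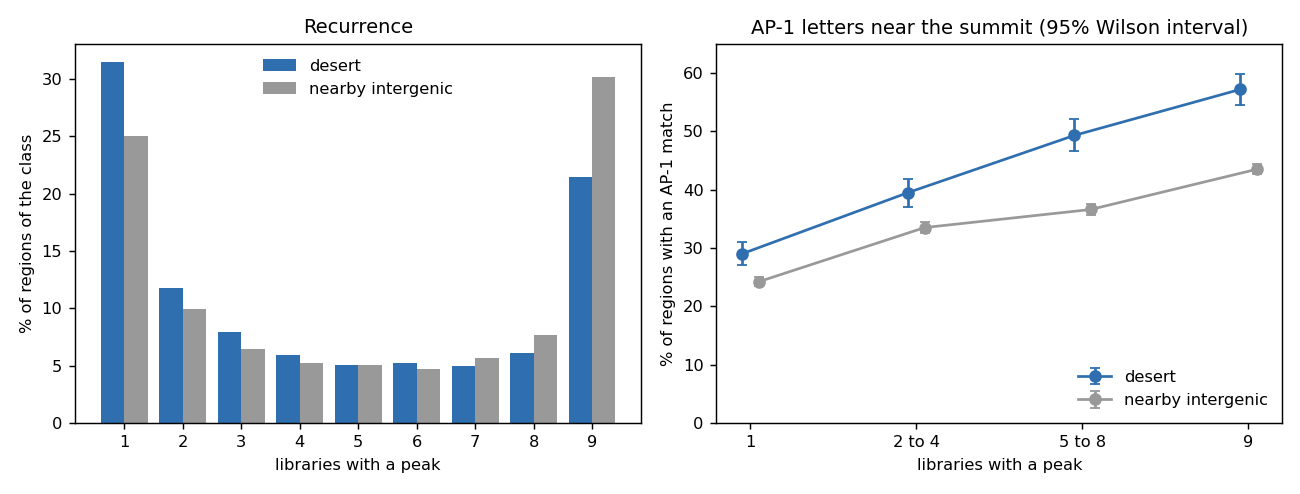
Left, percent of desert and nearby intergenic regions by the number of libraries with a peak. Right, percent of regions with AP-1 letters within 100 bp of the summit, with 95% Wilson intervals. Of desert regions 31.5% are found in 1 library and 21.5% in 9, against 25% and 30.2% of nearby regions, and the AP-1 share of desert regions lies above that of nearby regions in every group, from 29.0% in 1 library to 57.2% in 9.

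AP-1 letters accompanied recurrence. The share with an AP-1 match was 29.0% in 1 list (interval 27.0 to 31.1), 39.5% in 2 to 4 lists, 49.3% in 5 to 8 lists and 57.2% in 9 lists (54.5 to 59.8). Among nearby regions it went from 24.2% to 43.5%. RUNX letters, the site of the RUNX family of developmental regulators, followed the same order in deserts, with 7.73% in 1 list and 12.9% in 9 lists, against 6.48% and 7.90% nearby.

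CTCF did not follow this order. Its consensus, the binding site of the insulator protein, stood in 3.15% of desert regions against 4.68% nearby, and its desert share was 2.42% in 1 list, 3.88% in 2 to 4, 4.81% in 5 to 8 and 1.69% in 9 lists (22 of 1298, 1.12 to 2.55). Of nearby regions in 9 lists 5.63% held it. TEAD letters were present in 8.27% of desert and 6.15% of nearby regions, and FOX letters in 4.46% and 3.19%. CEBP letters (TTGCNNCAA) stood in 1.82% and 1.62%, and ETS letters (CCGGAAG) in 0.961% and 1.55%. Over all regions outside deserts the shares were 3.82% for CTCF, 6.70% for RUNX, 5.48% for TEAD, 2.92% for FOX, 1.39% for CEBP and 3.00% for ETS. Desert windows had a lower GC content than nearby windows, with medians of 45.3% and 49.8%, and its part in the motif shares was not tested.

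Desert regions lay 250 to 2844 kb from the nearest TSS, with a median of 406 kb. The 449 regions beyond 1000 kb were the least recurrent: 12.7% were found in all 9 lists, against 22.4% of the 3972 regions at 250 to 500 kb and 21.9% of the 1613 at 500 to 1000 kb, and shCtrl agreement fell to 52.0% from 64% and 64.4%. Just outside the threshold, at 240 to 250 kb, lay 306 regions, of which 23.5% were in all 9 lists and 28.4% in 1, with a shCtrl agreement of 74.0%. Just inside it, at 250 to 260 kb, lay 297 regions, with 21.9%, 35.4% and 69.4%. The share gained, by the rule given further on, was 1.67% and 3.48% with shEZH2 and 2.30% and 7.00% with shE2F1, outside and inside. These narrow bins hold few gained regions. At 100 to 250 kb and 250 to 500 kb the shares were 1.29% and 2.09% with shEZH2 and 4.40% and 5.30% with shE2F1. Transcripts of lncRNA genes overlapped 40.3% of desert regions (28.8% nearby), but 5.45% overlapped a lncRNA exon and 4.97% lay within 1 kb of a lncRNA TSS (7.58% nearby). The sequence around the summit had more than 1 genomic copy in 132 desert regions (2.19%), against 4.13% of nearby regions.

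The 3 regions farthest from any TSS lay in the RPIA to AQP7B desert beside the centromere of chromosome 2, at 2821 to 2844 kb. The farthest (chr2:91743020-91743364) had a peak in 2 libraries, at percentile 8.59 in the first shE2F1 library and 26.7 in shSUZ12. The next (chr2:91759594-91759854) overlapped an exon of the lncRNA gene ENSG00000286698 and had a peak in 5 libraries, at percentiles from 8.79 in DMSO to 43.5 in the second shE2F1 library. The last (chr2:91765004-91765639), in an intron of that gene, was found in all 9 libraries at percentiles from 15.6 to 40.0. Its summit held 52 to 94 tags, against desert medians of 20.0 to 26. Its percentiles, which rank fold over local background, were thus low without few tags. The latter pair had 2 and 3 copies of its sequence in the genome. The aligner kept up to 4 placements per read, so reads of such copies may be shared between them.

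The genome held 769 deserts, and density varied widely between them. No region was found in 176 deserts, and 92 deserts held 50% of all desert regions. Neighbouring regions lay close together: 58.0% had another desert region within 10 kb, and the median gap was 6.53 kb. Of the 183 deserts with at least 1 Mb of sequenced bases, 22 held none. The 39 deserts with an assembly gap held 2.82 regions per Mb, and the 730 without held 12.3. The 3 longest had gaps and few regions: 6 in ZNF716 to ZNF722 on chromosome 7 (5.75 Mb), 3 in ANKRD30B to ROCK1 on chromosome 18 (5.65 Mb) and 13 in KCNJ18 to WSB1 on chromosome 17 (4.95 Mb).

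The 5 deserts with most open regions held 55 to 78 of them. ZEB2 to ACVR2A (chr2:144771058-147594516) held 78 regions, 27.6 per Mb, and ZEB2 drives epithelial-mesenchymal transition. Its count was 30 and 36 with shCtrl, 42 and 22 with shEZH2, 33 and 54 with shE2F1, 42 with shSUZ12, 37 with DMSO and 37 with GSK126, so the replicates of each knockdown differed by more than the group means. MYC to GSDMC (chr8:127987746-129527586), downstream of the MYC oncogene, also held 78 and was the densest of at least 1 Mb, with 50.7 per Mb. Of these, 32 (41.0%) were found in all 9 libraries, and the count per library was lowest in shEZH2 replicate 2 (42) and highest in shE2F1 replicate 2 (59).

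SLC35B3 to TFAP2A (chr6:8685546-10154593), beside a gene for an AP-2 factor of ectoderm and neural crest, held 70 regions (47.6 per Mb), of which 13 were in all 9 libraries and 22 in 1. METTL15 to KCNA4 (chr11:28527042-29767029) held 60 (48.4 per Mb), with 25 in all 9, and KLF4 to ACTL7B (chr9:107740483-108605985), beside the pluripotency factor KLF4, held 55 in 0.866 Mb, with 22 in all 9. KIRREL3 to ETS1 (chr11:127250811-128255393) held 46, or 45.8 per Mb. The fifth of the dense deserts, from TMEM121 to the end of chromosome 14 (chr14:105776584-107043718), is the immunoglobulin heavy-chain locus, whose gene segments GENCODE does not class as protein-coding. It held 43 regions, 38.8 per Mb, but 4 were in all 9 libraries and 21 in 1.

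**Figure D3:**
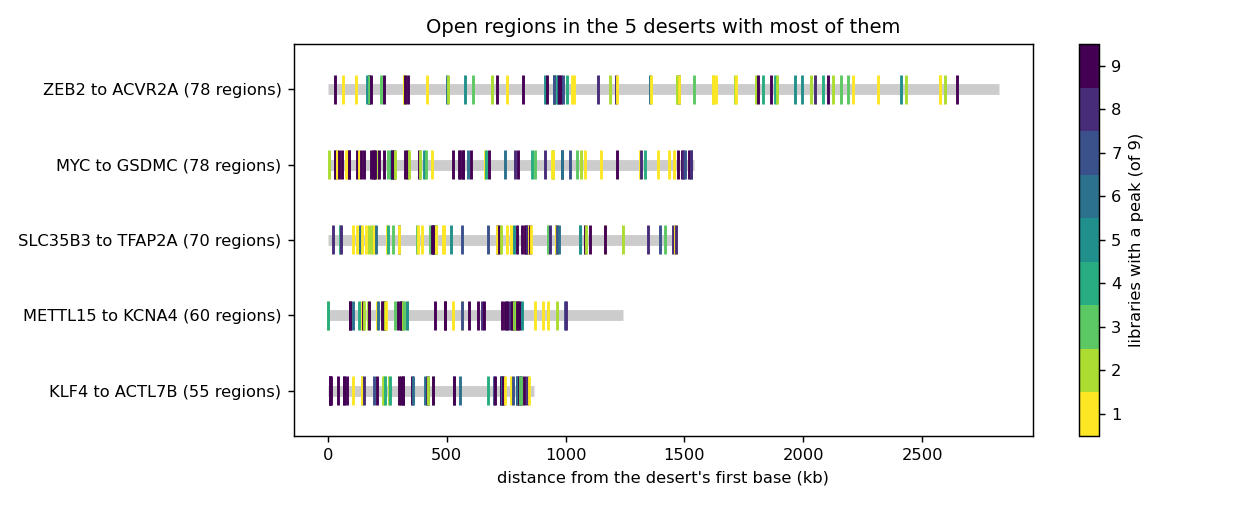
Position of each open region in the 5 deserts with most of them, as distance in kb from the desert's first base; the colour gives the number of libraries with a peak and the grey bar the length of the desert. Regions found in all 9 libraries are unevenly spread along each desert, and the ZEB2 to ACVR2A desert is the longest of the 5, with 78 regions of which 15 are in all 9.

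Of 172 developmental regulators listed, 91 flanked a desert. The list was incomplete: OSR1, EN1 and MYC, for example, were not on it, so deserts beside them counted among the others. The contrast is thus between listed and unlisted flanking genes. The 104 deserts beside a listed regulator held 15.3 regions per Mb, with a median density of 10.6. The other 665 held 9.97 per Mb, with a median of 7.55. The upper quartile of density had the reverse order, with 25.4 beside a listed regulator and 27.7 in the others. Among deserts with at least 1 Mb the densities were 13.6 and 5.80 per Mb. All 39 deserts with an assembly gap were among the others. Without them the densities over all lengths were 15.3 and 11.8. The KCNJ2 to SOX9 desert held 41 regions and the short SOX9 to SLC39A11 desert on the other side of SOX9 held 29. The GATA3 to CELF2 desert held 48, of which 3 were in all 9 libraries. No test was made of these densities.

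Which desert regions opened or closed with each treatment was then counted. A region was gained when every treated library had a peak and no control library did, and lost in the reverse case. The lists hold no reads per region, so presence of a peak was used without a test. In bulk cells, a site open in fewer cells and a site less open in each cell cannot be told apart. Percentages are of desert regions with a peak in any library of the comparison.

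With shEZH2, 93 of 4495 desert regions (2.07%, 1.69 to 2.53) were gained, where 0.889% of all autosomal regions and 0.980% of nearby regions were. Lost were 321 (7.14%, 6.42 to 7.93), close to the 7.17% over all regions and 7.71% nearby. The second shEZH2 library had the shortest list. In lists of equal length the balance turned, with 162 gained (5.13%, and 2.99% nearby) and 112 lost (3.55%, and 4.30% nearby). Without the second shEZH2 library 526 were gained (12%, and 6.84% of all regions) and 425 lost (9.72%, and 9.45% of all). Without the first, 217 were gained (5.34%, and 2.72%) and 723 lost (17.8%, and 17.2%). Without the first shCtrl library 148 were gained (3.61%, and 1.87%) and 860 lost (21.0%, and 18.6%), and without the second 173 (4.37%, and 2.30%) and 712 (18.0%, and 16.2%). Whether gains or losses were more numerous thus depended on the lists. The gained share in deserts was above that nearby in each of these settings. Of 762 desert regions with a peak in exactly 2 of the 4 libraries, the shEZH2 pair held 12.2% and the shCtrl pair 42.1%. Among such nearby regions these shares were 6.58% and 51.8%. The part of the lower replicate agreement of deserts in the gained share was not tested. Among 1605 desert regions open in each of the 4 libraries, both shEZH2 percentiles exceeded both shCtrl percentiles in 14.3% (over all regions 11.6%) and lower in 27.2% (over all regions 31.6%).

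With shE2F1, 281 of 5156 desert regions (5.45%, 4.86 to 6.10) were gained, against 2.89% of all regions and 3.50% nearby, and 195 (3.78%, 3.29 to 4.34) were lost, against 3.75% of all and 3.61% nearby. Equal lists gave 225 gained (6.93%, with 4.63% nearby and 3.61% of all) and 115 lost (3.54%, with 3.68% nearby and 3.69% of all). Without the first shE2F1 library, the shorter list, gains numbered 1074 (21.8%, with 14.8% nearby and 13.0% of all regions), and without the second 518 (11.9%, and 6.77% of all). Losses were 600 without the second shE2F1 library (13.8%, and 12.7% of all), 625 without the first shCtrl library (12.9%, and 11.5%) and 508 without the second (10.7%, and 10.00%). Among 1773 desert regions in all 4 libraries the percentile was higher in both shE2F1 libraries in 19% (over all regions 16.9%) and lower in 22% (22.6%). Gained regions lay in 184 deserts and lost regions in 135, with at most 6 and 5 in any desert, and ZEB2 to ACVR2A held 6 of the gains.

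For shSUZ12, 433 of 4278 desert regions (10.1%) had a peak in that library and in neither shCtrl library, against 6.66% of all regions and 7.27% nearby, and 401 (9.37%) were lost, against 8.53% and 9.15%. GSK126 against DMSO gave 420 gained of 3404 (12.3%, against 8.59% of all and 9.73% nearby) and 782 lost (23%, against 17.0% and 17.7%). These comparisons rest on 1 treated library each and have no replicate check. With shSUZ12, losses were 976 without the first shCtrl library (25.5%, and 20.6% of all regions) and 848 without the second (22.9%, and 18.5%), and gains were 676 without the second (18.3%, and 12.4%). Equal lists lowered the losses to 189 with shSUZ12 (6.74%, with 7.46% nearby and 6.58% of all regions). With GSK126 they fell to 339 (13.4%, with 12.4% nearby and 11.5% of all). Gains stood at 384 with shSUZ12 (13.7%, and 7.34% of all) and 477 with GSK126 (18.9%, and 10.7%). With both shCtrl libraries in place of DMSO, GSK126 had 254 gained (6.20%, with 3.96% nearby and 3.61% of all regions). Losses were then 401, which was 9.78% of desert, 9.95% of nearby and 9.33% of all regions.

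**Figure D4:**
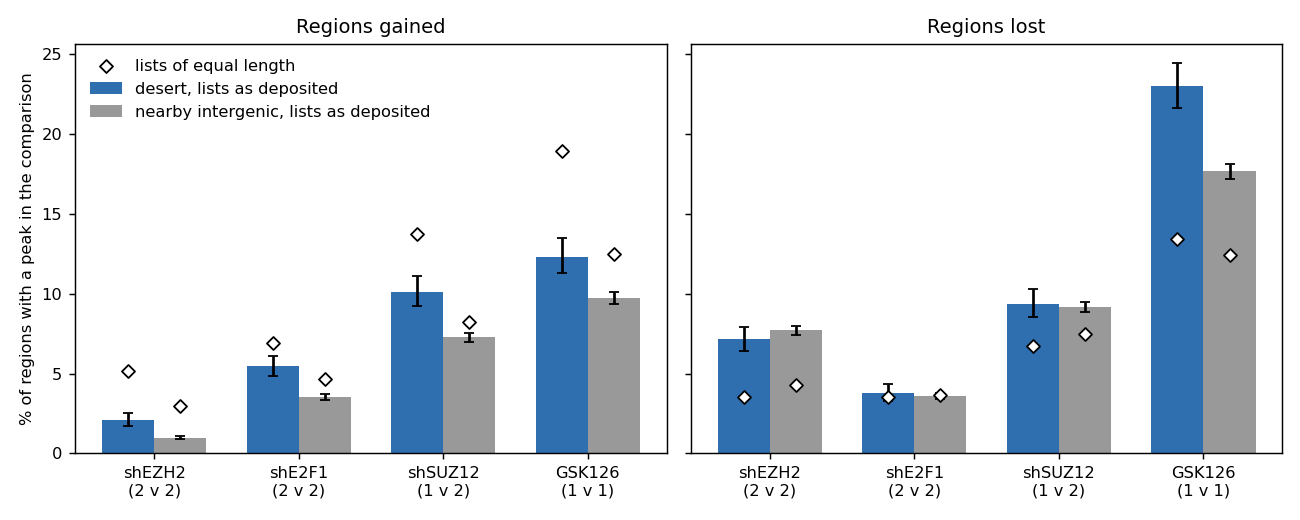
Percent of desert (blue) and nearby intergenic (grey) regions gained (left) or lost (right) in each comparison, with 95% Wilson intervals; numbers in brackets give treated against control libraries, and diamonds give the same percent in lists of equal length. Gained shares are higher in deserts in all 4 comparisons, from 2.07% against 0.980% with shEZH2 to 12.3% against 9.73% with GSK126, in both kinds of list.

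RUNX letters were rarer in gained than in lost desert regions of both replicated knockdowns. The calls of both use the same shCtrl libraries, so they are not independent observations. They stood in 7.12% of the 281 regions gained with shE2F1 (4.65 to 10.7) and in 16.4% of the 195 lost (11.9 to 22.2), and in 4.30% of the 93 gained with shEZH2 (1.69 to 10.5) and 14.3% of the 321 lost (10.9 to 18.6). All desert regions had 9.78%. Nearby regions had the same order, with 5.13% gained and 10.3% lost for shE2F1 and 4.04% and 8.13% for shEZH2. With shSUZ12 it was 9.93% and 8.23% and with GSK126 6.67% and 7.80% in deserts. The lower RUNX share of gained regions held for both hairpins in equal lists (4.44% and 20.0% with shE2F1, 8.64% and 22.3% with shEZH2) and, with a smaller difference, with each of the libraries left out in turn. Gained minus lost was then -5.90 to -4.03 percentage points with shEZH2, against -10.0 with all libraries, and -6.50 to -5.54 with shE2F1, against -9.29.

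TEAD letters stood in 15.7% of the desert regions gained with shE2F1 (11.9 to 20.4) and in 5.64% of those lost, but in equal lists the shares were 8.44% and 8.70%, so this difference depended on list length. AP-1 letters stood in 52.7% of desert regions gained with shE2F1 (46.8 to 58.4) and 35.4% of those lost (29.0 to 42.3), and in 46.2% and 43.9% with shEZH2. CTCF was present in 1 of the 281 regions gained with shE2F1 and in 9 of the 195 lost. Unlike TEAD and RUNX, the AP-1 and CTCF shares were not examined in equal lists or with libraries left out. Whether they depend on list length was therefore not tested. Nearby regions gained and lost with shE2F1 had the same order for all 3 motifs, so it was not particular to deserts. Their shares were 9.86% and 5.67% for TEAD, 40.8% and 29.8% for AP-1 and 1.10% and 6.28% for CTCF. With shEZH2 the nearby AP-1 shares were 46.6% and 34.2%. These shares were not tested between treatments.

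The strongest desert regions gained with shEZH2, gained with shE2F1 and lost with shE2F1 are printed in the same way, since they show single sites behind these counts, with capitals again marking motif letters.
Gained with shEZH2, between MMADHC and RND3, chr2:150063391-150063591: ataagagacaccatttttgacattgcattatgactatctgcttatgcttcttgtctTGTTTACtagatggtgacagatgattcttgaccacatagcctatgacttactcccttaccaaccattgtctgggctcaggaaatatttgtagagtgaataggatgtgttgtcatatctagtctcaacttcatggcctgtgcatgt
Gained with shE2F1, between ZEB2 and ACVR2A, chr2:145460222-145460422: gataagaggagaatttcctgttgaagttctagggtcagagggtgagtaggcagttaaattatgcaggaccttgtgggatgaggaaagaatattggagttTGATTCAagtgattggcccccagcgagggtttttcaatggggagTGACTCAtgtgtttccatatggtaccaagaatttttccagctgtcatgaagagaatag
Lost with shE2F1, between EXOC2 and FOXQ1, chr6:958613-958813: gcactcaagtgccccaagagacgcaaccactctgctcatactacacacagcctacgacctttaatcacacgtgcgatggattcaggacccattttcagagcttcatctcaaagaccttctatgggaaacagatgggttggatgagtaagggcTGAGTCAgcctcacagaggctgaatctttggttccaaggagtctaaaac

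The shEZH2 site had FOX letters and both shE2F1 sites AP-1 letters, 2 matches in the gained site. The site gained with shE2F1 in the ZEB2 to ACVR2A desert (chr2:145459938-145460520, 939 kb from ZEB2) had peaks at percentiles 94.2 and 95.8 in the shE2F1 libraries and in no other library. Both fold enrichments, 12 and 13.9, were high for desert peaks, whose median was 6.79 and 6.61 in these libraries. A gain between NPR3 and TARS1 (chr5:33058982-33059487), in an intron of the lncRNA gene ENSG00000250697, stood at 89.3 and 85.8 with shE2F1 and at 46.2 in the first shEZH2 library. A gain between PTPRU and ENSG00000289710 (chr1:30191200-30191631) stood at 83.2 and 86.2 and was found in shE2F1 libraries alone.

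The 3 strongest losses with shE2F1 were all open in the first shEZH2 library. The region between EXOC2 and FOXQ1 (chr6:958550-958924) overlapped an exon of LINC01622 and stood at percentiles 71.0 and 74.1 with shCtrl, 65.1 and 82.2 with shEZH2, 64 with shSUZ12 and 35.0 with GSK126, with no peak in DMSO. It was thus absent from a control library too. The region between DAOA and EFNB2 (chr13:105908553-105909196), which had RUNX letters, stood at 69.7 and 73.6 with shCtrl and had a peak in every library but those with shE2F1. Another, between DNAJB9 and IMMP2L (chr7:110442343-110442659), stood at 68.3 and 70.4 with shCtrl, 83.0 with DMSO and 71.2 in the first shEZH2 library, and was absent from the second shEZH2 and from the shSUZ12 library.

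The strongest gain with shEZH2, between MMADHC and RND3 (chr2:150063293-150063684, 422 kb from RND3), stood at 95 and 79.5 with shEZH2. It also had a peak at 87.2 and 42.1 with shE2F1, 50.9 with DMSO and 44.5 with GSK126, and none with shCtrl or shSUZ12. The gain between ADAMTS9 and MAGI1 (chr3:65145925-65146683), with TEAD letters, stood at 82.4 and 70.2 and was also open in DMSO at 54.3. A gain in the KLF4 to ACTL7B desert (chr9:108295974-108296451) stood at 68.2 and 68.0 and in DMSO at 60.4. All 3 were thus absent from both shCtrl libraries but present in the DMSO control.

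The losses with shEZH2 between KCNU1 and ZNF703 (chr8:37336625-37337242), at 71.0 and 85.4 with shCtrl, and between ZFAT and KHDRBS3 (chr8:134972324-134972903), at 85.1 and 73.7, both held AP-1 letters. The former was open in every other library, though at 19.2 with GSK126, and the latter was also absent from the first shE2F1 library.

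**Figure D5:**
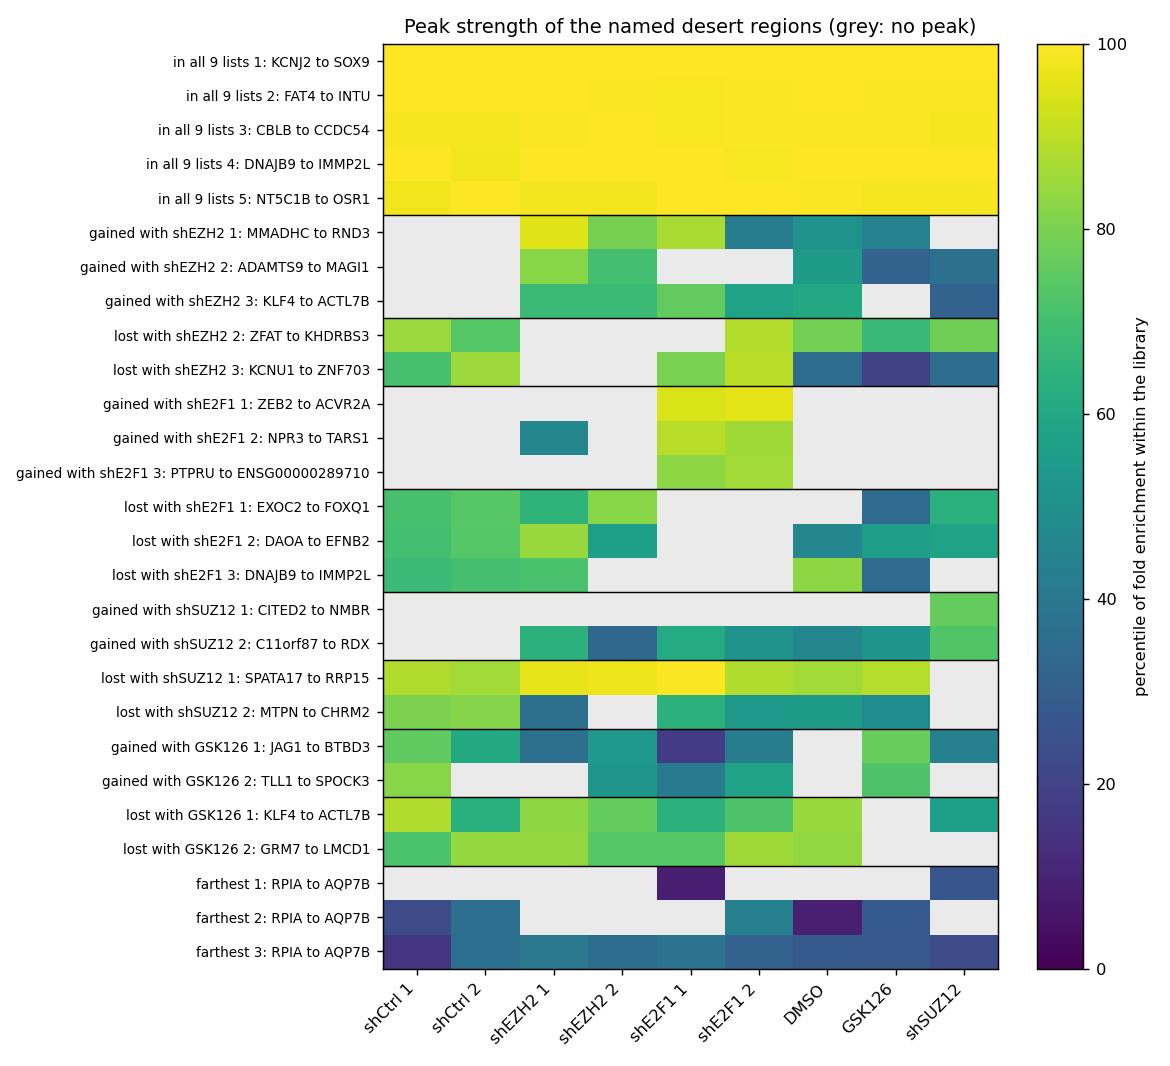
Percentile of fold enrichment in each of the 9 libraries for 27 desert regions, grouped by the reason for naming them and labelled by the flanking genes; grey means no peak. The 5 regions in all 9 lists stay at 97.9 or above, the first gain with shE2F1 is open in the shE2F1 libraries alone, and the 3 farthest regions stay at 43.5 or below.

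With single libraries, the strongest desert region gained with shSUZ12, between CITED2 and NMBR (chr6:140623527-140623883), stood at percentile 76.4 in that library alone, and that between C11orf87 and RDX (chr11:109733215-109733599) at 72.8, with peaks in all other libraries but shCtrl. The loss between SPATA17 and RRP15 (chr1:218025382-218025847) stood at 88.1 and 86.1 with shCtrl and between 86.2 and 99.4 in the other 6 libraries, and had no peak with shSUZ12. Its window held AP-1, TEAD and RUNX letters. The loss between MTPN and CHRM2 (chr7:136406187-136406621), with a CTCF match, stood at 80.3 and 81.7 with shCtrl and was also absent from the second shEZH2 library.

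With GSK126, the strongest gain, between JAG1 and BTBD3 (chr20:11274063-11274436), stood at 76.7 and was absent from DMSO but open in every other library, with 75.6 and 60.8 in shCtrl. The gain between TLL1 and SPOCK3 (chr4:166165848-166166178) stood at 71.9, and at 82.2 in the first shCtrl library. The loss in the KLF4 to ACTL7B desert (chr9:107890859-107891478) stood at 84.6 in DMSO and between 56.4 and 88.1 in the other 7 libraries, and that between GRM7 and LMCD1 (chr3:8111164-8111570) at 83.7 in DMSO, and was absent from shSUZ12 as well as GSK126. The first of these losses was missing from the GSK126 library alone.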

How the data were processed

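ATAC-seq was performed in 9 libraries of MDA-MB-231 cells, grouped by the deposited labels. The authors aligned reads with Bowtie2, keeping up to 4 placements per read, shifted them by 4 and 5 bp for the Tn5 cut and called peaks per library. The peak caller is not given in the sources used here. Each deposited list gives a fold enrichment over local background (a ratio), the −log10 of p and of q, and the summit. The build is hg38 (GRCh38).

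Peaks of chromosomes 1 to 22 were merged at 1 bp, and regions were placed with GENCODE release 44 (19111 protein-coding genes, 75398 TSS). A region took the highest percentile of its peaks. Tags at a summit were recovered from the fold and −log10 p, which was tried for 99.9% or more of every list's peaks and gave whole tags for 100% of these (tolerance 0.01 in −log10 p). Motif letters were sought in the 100 bp on each side of the highest summit of a region, on both strands, with CTCF by its consensus. AP-1 reads alike on both strands, and overlapping matches of different motifs were each counted. Copies were counted as the median over 9 words of 31 bases around each summit. Tests were exact permutation tests over libraries; shares have 95% Wilson intervals. Scripts were tested on simulated data (Python 3.11.15). The alternatives concerned peak thresholds, list length, merging, distance, TSS set, lncRNA starts, copies and left-out libraries. Named regions were the 5 in all 9 lists, the 3 gained and 3 lost with shEZH2 and shE2F1 and 2 with shSUZ12 and GSK126 with the highest lowest percentile, and the 3 farthest. 1 of the chosen losses with shEZH2, the strongest, is not reported here. Named deserts had most regions, the highest density from 1 Mb up or the greatest length. Others (KCNJ2 to SOX9, SOX9 to SLC39A11 and GATA3 to CELF2) and the comparison of all treated with all control shares in equal lists were chosen after their values were seen. The members and lists were chosen with earlier results of these data known.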

Additional observations from a re-analysis of the deposited data

How the results depend on the processing

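Peak lists give presence and not reads, so depth limits every count of gained or lost desert regions: a site under the calling threshold in a shallow library counts as absent. Of the results that answer a comparison, 85 alternatives left the value in place, 38 moved it, 8 took it past the threshold and 4 turned its sign. Of the others, 124 left it in place and 9 turned it, and in 1 the farthest named region had no peak left. Those left in place include 28 named regions at a −log10 q of at least 5 and 27 in lists of equal length. Their retention was largely set by the choice and is no sign of stability. Except where stated, the cause was not tested. The alternatives that left out multi-copy regions or the desert at the end of chromosome 14, treated each peak on its own, left out each list for the number of regions, or concerned motif shares and desert minus nearby shares were chosen after seeing the data. An alternative without soft-masked repeats was not run, because the reference has no soft masking.

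By construction the number changed with the distance, to 14996 desert regions at 100 kb and 2062 at 500 kb. The density, which the rule does not set, was 17.2 per Mb at 100 kb and 6.20 at 500 kb. With canonical TSS only the density was 11.2, without regions near a lncRNA TSS 10.0 and without deserts with an assembly gap 12.3 per Mb. Leaving out each list in turn gave 5509 to 5968 regions. Of the 28 regions the naming rule chose, 28 kept their group at a −log10 q of at least 5 and 27 in lists of equal length. Apart from the farthest regions they were chosen as strong, and both settings only drop weaker peaks. Their retention was thus largely set by the choice and is no check of the calls.

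Desert minus nearby strength passed at a −log10 q of at least 5 (1.72 points, exact permutation p = 0.0156), in lists of equal length (3.78, p = 0.00391), with summit windows (1.33, p = 0.0312), beyond 100 kb (2.08, p = 0.00781), without regions near a lncRNA TSS (1.28, p = 0.0469), without multi-copy regions (1.12, p = 0.0391) and with each peak on its own (1.59, p = 0.0156). Ranked by p it turned to -6.43 (exact permutation p = 0.00391). With each library left out it was 0.784 to 1.39 points, and over all alternatives p ran from 0.00391 to 0.508.

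Replicate agreement with shCtrl was 65.3% at a −log10 q of at least 5, 70.2% in lists of equal length and 66.5% beyond 100 kb. With shEZH2 it was 58.2%, 61.8% and 59.9%, and with shE2F1 it was 61.2% in lists of equal length, 57.8% beyond 100 kb and 52.2% beyond 500 kb.

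In lists of equal length 162 desert regions were gained with shEZH2 (5.13%, and 2.65% of all regions) and 112 lost (3.55%, and 3.88%). Lost were 115 with shE2F1 (3.54%, and 3.69%), 189 with shSUZ12 (6.74%, and 6.58%) and 339 with GSK126 (13.4%, and 11.5%). GSK126 against both shCtrl libraries gave 254 gained (6.20%, and 3.61% of all regions) and 401 lost (9.78%, and 9.33%). With each library left out, gains were 148 to 526 with shEZH2, 387 to 1074 with shE2F1 and 581 to 676 with shSUZ12, and losses were 425 to 860, 254 to 625 and 848 to 976. A group reduced to 1 library meets a looser rule by construction.

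The desert share with shEZH2 minus shCtrl turned to 0.325 points in lists of equal length, to 0.177 without the second shEZH2 library and to 0.0322 without the second shCtrl library. It ran from -0.208 to 0.177 with each library left out, and for shE2F1 from 0.0167 to 0.604. With a replicate block it was -0.0158 for shEZH2 (exact permutation p = 1.00) and 0.310 for shE2F1 (exact permutation p = 0.5), which changed no call. Differences between replicates 2 and 1 were nearly uncorrelated between groups (0.0326, 0.0592 and -0.00702, over 41560 regions). Such correlations cannot show whether libraries of the same number were prepared together.

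The desert minus nearby share of losses with shEZH2 turned to 1.17 and 1.29 points without the first and the second shCtrl library, in a range of -0.832 to 1.29 with each library left out. It turned in lists of equal length to -0.132 with shE2F1 and -0.724 with shSUZ12, and for GSK126 to -0.171 against shCtrl. The TEAD share of gained minus lost regions turned with shE2F1 to -0.251 in lists of equal length, and with shEZH2 to 0.827, 0.0544 and 3.96 without shCtrl 1, shCtrl 2 and shEZH2 2, in a range of -1.25 to 3.96 with each library left out.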
